A study of Mus musculus with 13 samples.

Results

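The regulators described here mark the repair state of Schwann cells (SCs) or hold back myelination, and 10 genes make up the group: Sox2, Pax3, Id1, Id2, Id3, Id4, Notch1, Hey1, Runx2 and Olig1. They were chosen by name, for what these genes are known to do, with earlier results of these data known. All 10 were found among the 40787 genes of the table. The study deleted Raptor, an essential subunit of the mTORC1 kinase complex encoded by Rptor, from adult SCs of C57BL/6 mice and asked how these nerves answer a crush. RNA was sequenced from the sciatic nerve of control and RaptorKO mice, each as crushed nerve 5 days post-crush (5 dpc) and as uninjured contralateral nerve. The 13 libraries comprised 3 of control injured nerve, 3 of RaptorKO injured nerve, 3 of control contralateral nerve and 4 of RaptorKO contralateral nerve.

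RaptorKO mice carried floxed Rptor alleles and a tamoxifen-inducible Cre directed at SCs. Controls carried floxed alleles without Cre. Both genotypes received tamoxifen at 2 months of age and were operated on 2 months later. The epineurium was stripped before RNA extraction, but the remaining nerve still held endothelial cells, fibroblasts, perineurial cells and immune cells, which this Cre is not directed at. In such bulk RNA, fewer cells of a type and less RNA per cell cannot be told apart. Rptor itself, the check of the labels, lay between 34.98 and 52.17 CPM (counts scaled to library size with TMM factors) in the 6 control libraries and between 22.06 and 28.80 CPM in the 7 RaptorKO libraries, without overlap.

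After axons degenerate, SCs distal to a crush leave the myelinating state and become repair cells, which clear myelin, support regrowing axons and later remyelinate them. Sox2, Pax3, Notch1 and the Id genes belong to the regulators described as holding SCs in an immature or repair state, in opposition to promyelinating factors such as Egr2. Sox2 and Pax3 are transcription factors of immature SCs. Notch1 is a receptor whose cleaved intracellular part, together with Rbpj, switches on Hes and Hey genes. The Id proteins lack a DNA-binding region and keep basic helix-loop-helix (bHLH) proteins from binding E-box sequences. Runx2, best known as the regulator of bone formation, and Olig1, a bHLH factor of the oligodendrocyte lineage, are low in intact nerve and are known to be switched on in injured SCs.

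RefSeq promoter windows (GRCm38.p6, 250 bases before to 50 bases after a transcript start) were at hand for 6 of the 10 genes, Sox2, Id2, Id3, Id4, Notch1 and Runx2. The windows of Pax3, Id1, Hey1 and Olig1 are named only. The 4 windows below belong to the genes whose transcripts rose after crush in both genotypes. They are chr17:44814578-44814877 on the minus strand (Runx2), chr3:34649745-34650044 on the plus strand (Sox2), chr12:25096043-25096342 on the minus strand (Id2) and chr2:26503773-26504072 on the minus strand (Notch1), each read 5′ to 3′. Capitals mark the Runx core TGTGGT on either strand in Runx2 and the GC box GGGCGG on either strand in the others.
Runx2: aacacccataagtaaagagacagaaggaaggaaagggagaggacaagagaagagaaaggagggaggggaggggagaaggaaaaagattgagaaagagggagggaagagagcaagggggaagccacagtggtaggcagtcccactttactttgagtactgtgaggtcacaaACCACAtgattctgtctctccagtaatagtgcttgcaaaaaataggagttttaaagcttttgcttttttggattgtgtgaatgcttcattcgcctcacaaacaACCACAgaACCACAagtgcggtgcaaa
Sox2: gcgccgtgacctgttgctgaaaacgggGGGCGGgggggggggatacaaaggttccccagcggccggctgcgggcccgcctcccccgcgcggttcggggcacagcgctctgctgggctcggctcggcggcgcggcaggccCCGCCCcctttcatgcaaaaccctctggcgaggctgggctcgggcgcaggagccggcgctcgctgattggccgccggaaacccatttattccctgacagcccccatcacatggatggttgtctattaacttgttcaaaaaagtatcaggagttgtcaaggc
Id2: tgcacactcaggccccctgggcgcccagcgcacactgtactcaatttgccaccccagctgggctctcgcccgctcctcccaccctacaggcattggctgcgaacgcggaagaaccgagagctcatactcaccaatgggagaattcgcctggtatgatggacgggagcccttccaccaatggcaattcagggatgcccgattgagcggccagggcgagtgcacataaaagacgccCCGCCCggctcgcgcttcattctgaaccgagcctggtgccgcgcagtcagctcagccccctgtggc
Notch1: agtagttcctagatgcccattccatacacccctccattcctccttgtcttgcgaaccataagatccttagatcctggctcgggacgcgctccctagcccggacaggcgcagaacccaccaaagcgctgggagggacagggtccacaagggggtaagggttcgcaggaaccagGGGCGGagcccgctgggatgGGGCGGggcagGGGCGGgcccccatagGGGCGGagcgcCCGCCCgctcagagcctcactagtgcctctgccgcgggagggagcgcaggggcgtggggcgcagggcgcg

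The Runx2 window held 3 Runx cores, starting at positions -80, 24 and 32 from the transcript start, and no other of the 6 windows held one. A core was present in 16.8% of 32851 RefSeq windows of this length. The cores at positions -80 and 32 shared bases with an E-box match. Runx2 was also the window without a GC box. The GC box, which 35.7% of all windows held, was found in the other 5, with 5 matches in Notch1, 5 in Id4, 2 in Sox2, 2 in Id3 and 1 in Id2. G and C made up 45.3% of the Runx2 window and 60.0% to 73.3% of the other 5, against a median of 52.7% over all windows. E-boxes (CANNTG) occurred in 3 of the 6, Sox2, Id2 and Runx2, and in 72.3% of all windows. The Rbpj element TGGGAA was found in Id4 alone among the 6 (25.6% of all windows), and the palindrome GGCGCC in Id2 and Id4 (11.9%). No window of the 6 held the AP-1 element TGANTCA (7.81%) or the cAMP response element TGACGTCA (1.79%). These matches describe letters in a window and say nothing on binding.

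Library totals ran from 8200476 to 13581788 counts. Both control libraries numbered 3 had high Xist counts (14462 and 15017), whereas the other 11 libraries had 4 to 17 Xist counts and 1456 to 2338 Y-linked counts. Values without these 2 libraries are given where a result turns on them. Counts per gene were tested with edgeR's quasi-likelihood test when at least 2 libraries of a comparison had 50 counts or more. A gene counted as changed when the adjusted p (Benjamini-Hochberg over all genes tested) was below 0.05 and the fold exceeded 1.2. The libraries of a group came from different mice, and contralateral nerves were taken to match the injured ones. The labels do not state that equal numbers mark 1 mouse. The unilateral crush and the high Xist in both control libraries numbered 3 would fit that. The main tests treated all libraries as independent.

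The comparison of crushed with intact nerve held the largest differences in this gene group. In control nerves 4 of the 8 tested regulators rose (Runx2, Sox2, Id2 and Notch1), 2 fell (Id1 and Id3), and Id4 and Hey1 did not pass the test. Pax3 and Olig1 stayed under the count minimum. Among all 12430 genes tested in this comparison 32.4% rose and 32.9% fell, so the counts of changed members are not unusual by themselves, and the sizes carry the description.

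**Figure D1:**
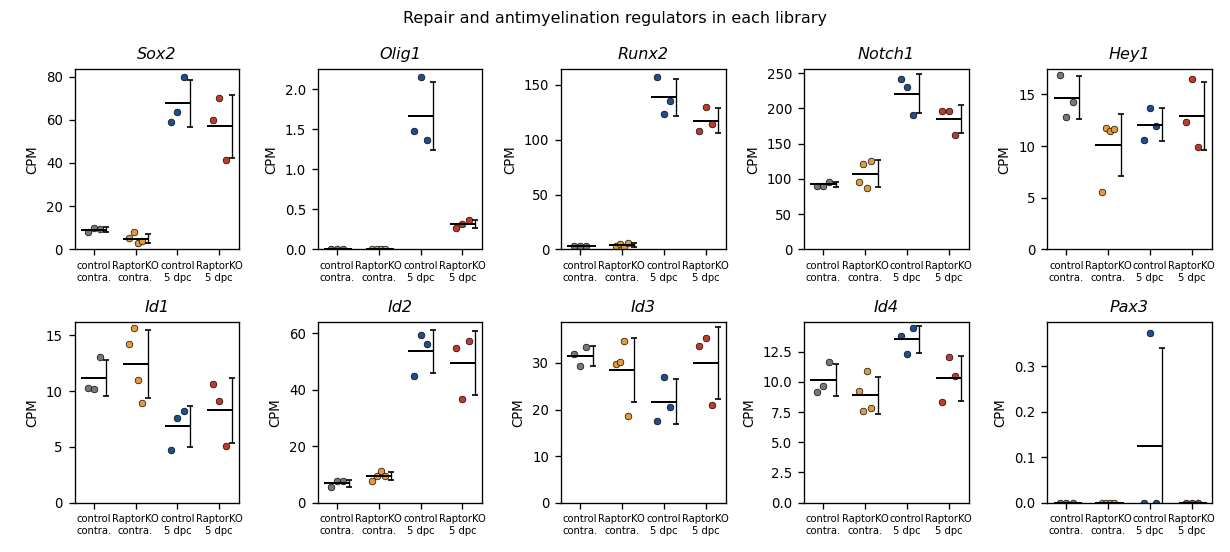
TMM-scaled CPM of the 10 regulators (linear axes from 0, one panel a gene) in each library of the 4 groups (contra., contralateral; 5 dpc, injured), with points for libraries, horizontal lines for group means and bars for ± SD. Runx2, Sox2, Id2 and Notch1 are higher in every injured library than in every contralateral one, and Olig1 has counts in the 6 injured libraries alone.

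Runx2 (chr17:44495987-44814797, minus strand) had the widest step. It was low in control contralateral nerve, with 2.986, 2.836 and 3.117 CPM, and reached 156.8, 122.9 and 135.6 CPM at 5 dpc. RaptorKO contralateral nerves had 2.956, 5.190, 2.457 and 5.590 CPM and the injured ones 107.8, 130.0 and 114.2 CPM. Every injured library lay far above every contralateral library. Runx2 rose by a log2 fold change of 5.49 (SE 0.14, 95% interval 5.18 to 5.80, adjusted p = 6.22e-11) in controls and by 4.83 (SE 0.23, 4.32 to 5.35, adjusted p = 5.61e-08) in RaptorKO nerves with edgeR's quasi-likelihood test. Its antisense transcripts Runx2os1, Runx2os2 and Runx2os3 and the gene Supt3 overlap it on the other strand. The library kit marks the strand, but whether the counting used it is not given in the sources used here.

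Sox2 (chr3:34650405-34652461, plus strand) was low but present in intact nerve, at 8.054, 9.965 and 9.643 CPM in controls. At 5 dpc it stood at 59.16, 63.71 and 79.74 CPM, all above the contralateral values. RaptorKO nerves went from 5.385, 8.014, 2.929 and 3.938 CPM to 59.77, 69.86 and 41.32 CPM, again without overlap. Sox2 rose by 2.83 (SE 0.16, adjusted p = 2.04e-08) in controls and by 3.44 (SE 0.30, adjusted p = 3.39e-06) in RaptorKO nerves on the log2 scale with edgeR's quasi-likelihood test. It lies inside the noncoding gene Sox2ot on the same strand, so reads of the shared exonic stretch could be assigned to either.

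Id2 (chr12:25093799-25097140, minus strand), one of 4 Id genes that were not alike, rose with crush. Control contralateral nerves held 5.430, 7.616 and 7.500 CPM and control injured nerves 45.02, 59.51 and 56.29 CPM. In RaptorKO it was 7.813, 9.617, 11.05 and 9.528 CPM in contralateral and 54.93, 36.63 and 57.24 CPM in injured nerve. Injured and contralateral libraries did not overlap, and RaptorKO injured 2 was the lowest of the 6 injured libraries. The log2 rise was 2.92 (SE 0.18, adjusted p = 3.39e-08) in controls and 2.35 (SE 0.18, adjusted p = 1.64e-06) in RaptorKO nerves by edgeR's quasi-likelihood test. RaptorKO injured 2 was also the library with the lowest macrophage marker sum at 5 dpc (1547 CPM, against 2434 to 3268 CPM in the other 5 injured libraries), and the part of these markers in the Id2 level was not tested. Without that library the rise of Id2 still passed the test.

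Notch1 (chr2:26457903-26516663, minus strand) is the receptor of the group. It was already well expressed in control contralateral nerve, at 90.41, 89.93 and 96.14 CPM, and reached 241.9, 230.9 and 190.3 CPM after crush. RaptorKO contralateral nerves had 95.13, 121.9, 86.93 and 125.4 CPM and RaptorKO injured nerves 196.7, 196.0 and 162.8 CPM. The groups did not overlap in either genotype, but the step was smaller than those of Runx2, Sox2 and Id2. Notch1 rose by 1.22 (SE 0.097, adjusted p = 3.94e-07) in controls and by 0.76 (SE 0.14, adjusted p = 8.06e-04) in RaptorKO nerves on the log2 scale (edgeR's quasi-likelihood test). Gm13568 and 0610009E02Rik overlap Notch1 on the other strand and Mir6996 on its own.

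Id1 (chr2:152736251-152737410, plus strand) and Id3 (chr4:136143497-136145755, plus strand) went the other way in controls. Id1 was 10.32, 10.21 and 13.05 CPM in control contralateral nerve and 4.714, 7.567 and 8.208 CPM at 5 dpc. Id3 was 31.86, 29.25 and 33.41 CPM and then 17.56, 27.00 and 20.52 CPM. Neither overlapped between the control groups. Id1 fell by 0.75 (SE 0.25, adjusted p = 0.0199) and Id3 fell by 0.58 (SE 0.16, adjusted p = 0.0075) on the log2 scale with edgeR's quasi-likelihood test. Both falls were less secure than the rises: that of Id1 did not pass without control injured 1 (adjusted p = 0.0715) or control contralateral 3 (0.0760), and that of Id3 did not pass without both control libraries numbered 3 (0.0566).

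In RaptorKO nerves neither Id gene passed the crush test. Id1 was 14.25, 15.65, 10.96 and 8.893 CPM in contralateral and 10.66, 9.078 and 5.061 CPM in injured nerve, with overlap. Its log2 fold change was -0.62 (SE 0.28, 95% interval -1.24 to 0.0025, edgeR's quasi-likelihood test, adjusted p = 0.0798). The call depended on the fit, since Id1 passed with the replicate number as a block (adjusted p = 0.0123) and without RaptorKO contralateral 4 (0.0464). Id3 was 29.88, 30.30, 34.77 and 18.67 CPM in contralateral and 33.60, 35.29 and 21.07 CPM in injured RaptorKO nerve. These ranges coincide, and the log2 fold change was 0.050 (95% interval -0.45 to 0.55).

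Id4 (chr13:48261228-48266026, plus strand) had 9.140, 9.641 and 11.69 CPM in control contralateral and 13.77, 12.33 and 14.46 CPM in control injured nerve. The groups did not overlap, yet the log2 fold change of 0.37 (SE 0.19, adjusted p = 0.107, edgeR's quasi-likelihood test) did not pass. In RaptorKO nerve it was 9.291, 7.556, 10.87 and 7.876 CPM before and 8.333, 12.08 and 10.49 CPM after crush, with a log2 fold change of 0.19 (95% interval -0.28 to 0.66). A330033J07Rik and Gm49291 overlap Id4 on the other strand.

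Hey1 (chr3:8663359-8667256, minus strand), a bHLH repressor switched on by Notch signaling, did not pass the crush test in either genotype, although the Notch1 transcript rose in both. Control contralateral nerves held 16.92, 12.80 and 14.32 CPM and injured ones 10.63, 13.73 and 11.92 CPM. RaptorKO contralateral nerves held 5.596, 11.75, 11.43 and 11.69 CPM and injured ones 12.37, 16.50 and 9.938 CPM. In both genotypes the ranges overlapped. The log2 fold changes were -0.32 (95% interval -0.74 to 0.089) in controls and 0.33 (-0.28 to 0.94) in RaptorKO.

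**Figure D2:**
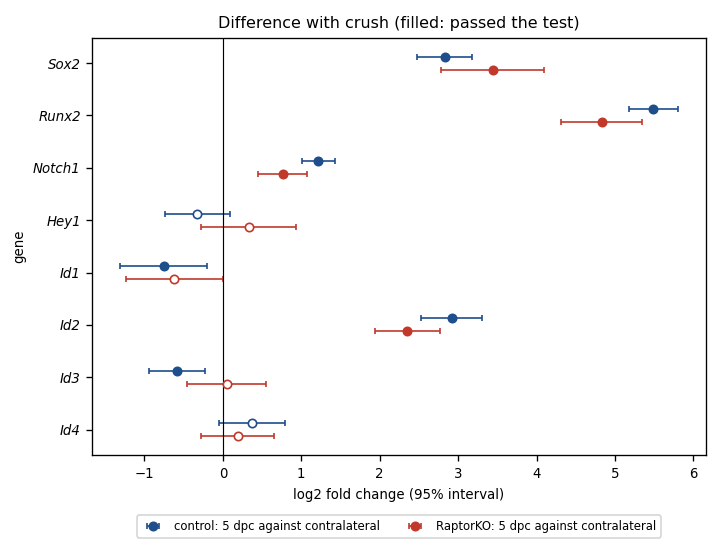
Log2 fold change between injured (5 dpc) and contralateral nerve for the 8 regulators that could be tested (horizontal axis), in control and RaptorKO nerves, with 95% intervals as bars and filled points for genes that passed the test. Runx2, Sox2, Id2 and Notch1 are to the right of 0 in both genotypes, and Id1 and Id3 are filled to the left of 0 in controls alone.

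Counted over the group, 4 of 8 tested members rose and 0 fell with crush in RaptorKO nerves, where 30.5% of 12515 genes tested rose and 28.5% fell. That Id1 and Id3 passed in controls and not in RaptorKO does not show that they responded differently. The difference in response has its own test, the interaction term described further on.

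At 5 dpc no testable regulator passed the comparison between genotypes. Of the 8 members with enough counts, 0 were lower and 0 were higher in RaptorKO than in control nerve by edgeR's quasi-likelihood test, and 1 had an unadjusted p under 0.05, as had 21.5% of all genes tested. DESeq2 also called 0. Of all 12040 genes tested, 4.44% were lower and 4.09% higher, so a list of this size need not hold any.

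The 3 strongly induced genes had log2 fold changes between genotypes at 5 dpc of -0.22 for Runx2 (SE 0.12, 95% interval -0.48 to 0.049), -0.22 for Sox2 (SE 0.19, -0.64 to 0.19) and -0.097 for Id2 (SE 0.17, -0.48 to 0.28). Injured libraries of the genotypes overlapped for each of them. All 3 intervals include 0, and each leaves room for a level in RaptorKO that is lower by up to its lower bound. Notch1 stood at -0.23 (SE 0.12, -0.50 to 0.035), also with overlap. Hey1 was at 0.12 (-0.37 to 0.62) and Id1 at 0.30 (-0.42 to 1.01).

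Id3 was the testable member with an unadjusted p under 0.05, and Id4 the testable member whose groups did not overlap. Id3 was 17.56 to 27.00 CPM in control and 21.07 to 35.29 CPM in RaptorKO injured nerve, a log2 fold change of 0.49 (SE 0.22, unadjusted p = 0.0461, adjusted p = 0.222, edgeR's quasi-likelihood test). Its groups overlapped through RaptorKO injured 3 alone, and without that library the value was 0.69 (adjusted p = 0.0453). Id4 was 12.33 to 14.46 CPM in control and 8.333 to 12.08 CPM in RaptorKO injured nerve, without overlap, at -0.37 (SE 0.21, adjusted p = 0.339). Neither passed with all libraries. How many of all genes have injured groups without overlap was not counted, so the separation of Id4 is given as description only.

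In contralateral nerve, 0 of 7 tested members were lower and 0 higher in RaptorKO, against 5.68% and 4.49% of 11878 genes. Unadjusted, 2 of the 7 had a p under 0.05, near the 24.9% of all genes tested, and DESeq2 called 0. Sox2 was 8.054 to 9.965 CPM in the 3 control and 2.929 to 8.014 CPM in the 4 RaptorKO libraries. These did not overlap, with RaptorKO contralateral 2 at 8.014 CPM touching the lower end of the controls. The log2 fold change of Sox2 was -0.83 (SE 0.31, 95% interval -1.52 to -0.13, adjusted p = 0.131, edgeR's quasi-likelihood test), and without RaptorKO contralateral 2 it was -1.15 (adjusted p = 0.0321).

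Id2, the other gene with an unadjusted p under 0.05, stood at 5.430 to 7.616 CPM in control and 7.813 to 11.05 CPM in RaptorKO contralateral nerve, without overlap, at a log2 fold change of 0.50 (SE 0.21, 95% interval 0.032 to 0.96, adjusted p = 0.17, edgeR's quasi-likelihood test). In those RaptorKO nerves the macrophage marker sum was higher as well, 216.4 to 284.2 CPM against 136.8 to 156.0 CPM, with 4 of the 6 tested markers higher. The fibroblast sum (7573 to 10320 against 4700 to 5585 CPM, 3 of 6 markers higher) and the mast cell sum (78.9 to 135.7 against 11.9 to 57.8 CPM, 2 of 5 higher) did not overlap either. The part of these cells in the Id2 values was not tested. Hey1, at 5.596 to 11.75 CPM in RaptorKO against 12.80 to 16.92 CPM in control, did not overlap either (-0.51, SE 0.25, adjusted p = 0.232, edgeR's quasi-likelihood test). Sox2, Id2 and Hey1 did not pass, and how many of all genes have groups without overlap was not counted. Separation of so few libraries is given as description only.

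Notch1 was 0.25 (95% interval -0.048 to 0.54), Id1 0.18 (-0.28 to 0.65), Id3 -0.12 (-0.51 to 0.27) and Id4 -0.17 (-0.59 to 0.26) on the same log2 scale in contralateral nerve. Runx2 had 33, 35 and 32 counts in control and 28, 68, 26 and 44 counts in RaptorKO contralateral nerve, too few libraries above 50 counts for the fit. A two-sided exact permutation test of its CPM gave p = 0.4.

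**Figure D3:**
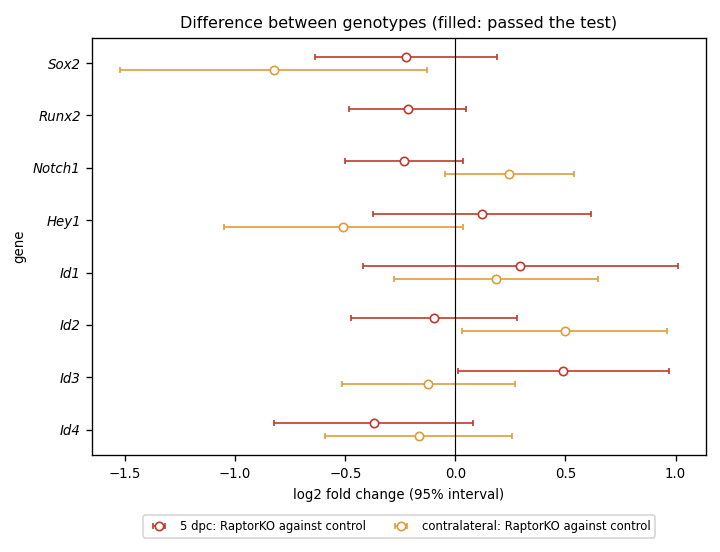
Log2 fold change between RaptorKO and control nerve (horizontal axis) for the regulators that could be tested at 5 dpc and in contralateral nerve, with 95% intervals as bars. No point is filled, because no member passed the test, and the bars of Sox2 and Id2 in contralateral nerve and of Id3 at 5 dpc stop short of 0.

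The interaction asked whether crush moved a gene by a different amount in RaptorKO than in control nerve. It was called for 0 of the 8 testable members and for 2.47% of 12851 genes with edgeR's quasi-likelihood test, and DESeq2 called 0 members too. Unadjusted, 14.2% of all genes and 3 of the 8 members had a p under 0.05: Notch1 at -0.47 (SE 0.19, adjusted p = 0.247), Runx2 at -0.68 (SE 0.30, adjusted p = 0.321) and Id2 at -0.59 (SE 0.27, adjusted p = 0.328). A negative value means a smaller rise in RaptorKO. For Sox2 the value was 0.59 (95% interval -0.19 to 1.37), with the larger rise in RaptorKO. For Id3 it was 0.61 (-0.044 to 1.27), for Hey1 0.63 (-0.12 to 1.38), for Id1 0.12 (-0.72 to 0.96) and for Id4 -0.20 (-0.78 to 0.37). The crush comparisons and the genotype comparisons share libraries with this one.

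Olig1 (chr16:91269772-91271933, plus strand) was the member with the largest relative difference between genotypes after injury, and it was too low for the main test. It had 16, 23 and 14 counts in control injured nerve, 3, 4 and 4 counts in RaptorKO injured nerve, and 0 counts in each of the 7 contralateral libraries. Scaled to depth these were 1.479, 2.149 and 1.368 CPM against 0.2688, 0.3158 and 0.3681 CPM. Every control injured library was above every RaptorKO injured library.

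The control to RaptorKO ratio of Olig1 at 5 dpc was 5.26, with an exact 95% interval of 2.72 to 11.2 that covers counting error only. A two-sided exact permutation test gave p = 0.1, the smallest value that 3 against 3 libraries allow. With no count minimum, edgeR's quasi-likelihood test gave a log2 fold change of -2.34 and an adjusted p of 0.0566, with a range over the alternatives of 0.0293 to 0.274. The lower end came from edgeR's own expression filter, under which Olig1 passed. Against the floor that 0 counts allow, 3 counts a library, Olig1 in control injured nerve was at least 6.19-fold higher than in control contralateral nerve. In RaptorKO injured nerve it was at about that floor (0.229 to 0.381 CPM in the contralateral libraries), so no fold is given. A two-sided exact permutation test of RaptorKO injured against contralateral Olig1 gave p = 0.0286, the smallest value for 3 against 4 libraries. Gm15966 overlaps Olig1 on the other strand.

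Pax3 (chr1:78101267-78197134, minus strand) had 4 counts in control injured 2 and 0 counts in the other 12 libraries. At 3 counts a library as the limit, expression was not detectable at this depth in those 12, and no fold was computed.

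Levels of different genes were compared per kilobase of exon, with all annotated exons of a gene joined. That length was 14232 bases for Notch1, 8837 for Runx2 and 1160 for Id1. The order depends on it, and no other length was tried. Id3 led in control contralateral nerve with 17.6 ± 1.17 CPM per kb (SD, n = 3). Id1 (9.65 ± 1.39), Notch1 (6.48 ± 0.243) and then Hey1 (4.50 ± 0.638) followed in CPM per kb, each range apart from the next. Hey1 and Sox2 (4.48 ± 0.497) could not be separated, nor could Id2 (2.81 ± 0.505) and Id4 (2.64 ± 0.351). Runx2 was last of the genes with counts in all libraries, at 0.337 ± 0.0159 CPM per kb.

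At 5 dpc the order in control nerve was changed. Sox2 led at 32.8 ± 5.25 CPM per kb and Id2 was next at 21.99 ± 3.13, both apart from the genes below. Runx2 (15.7 ± 1.94), Notch1 (15.5 ± 1.91) and Id3 (12.1 ± 2.69) formed a chain of overlapping ranges in CPM per kb. Olig1, at 0.770 ± 0.195 CPM per kb, was well under Id4 at 3.51 ± 0.282. RaptorKO injured nerve kept Sox2 (27.7 ± 7.03) and Id2 (20.3 ± 4.64) at the top of the CPM per kb levels, but Id3 (16.7 ± 4.33) came next, followed by Runx2 (13.3 ± 1.29) and Notch1 (13.01 ± 1.36), and the range of each of these 5 genes overlapped that of the next.

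The genes whose log2 CPM ran most like that of a member over the 13 libraries were ranked by Pearson r among 12850 others. Because crush separates the libraries, r is given within the 6 injured and the 7 contralateral libraries, as a description. For Sox2 the closest were Tubb3 (0.65 and 0.94), Ppp1r14c (0.87 and 0.90) and Foxd3 (0.83 and 0.88). For Id2 they included Tyrobp (0.81 and 0.97) and B4galt5 (0.84 and 0.91). For Notch1 they were Rnasek (0.85 and 0.89), Lsm8 (0.92 and 0.82) and Micall1 (0.92 and 0.73). For Runx2 they were Srxn1 (0.83 and 0.71), BC030867 (0.70 and 0.89) and Ccne2 (0.67 and 0.53). Points share their library, its depth and its genotype, and for Runx2 the contralateral values rest on few counts.

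Elsewhere in the Notch pathway some genes differed by genotype at 5 dpc. Of the 4 receptors, Notch3, known from vascular mural cells, was the 1 that passed and was higher in RaptorKO at 5 dpc, at 85.2 ± 18.4 CPM (SD, n = 3) against 35.2 ± 6.00 CPM in controls. The log2 fold change of Notch3 was 1.30 (SE 0.17, adjusted p = 0.00153, edgeR's quasi-likelihood test), and its interaction passed as well (1.14, SE 0.25, adjusted p = 0.0257). Control nerves went down with crush in Notch3, from 59.1 ± 9.16 CPM, whereas RaptorKO contralateral nerves held 64.9 ± 11.7 CPM (SD, n = 4).

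Among 6 Notch ligands 3 could be tested at 5 dpc, and Jag2 was higher in RaptorKO, with 16.4 ± 3.05 CPM against 7.34 ± 1.63 CPM. Its log2 fold change was 1.18 (SE 0.23, adjusted p = 0.0104) and its interaction 1.16 (SE 0.26, adjusted p = 0.0327), both from edgeR's quasi-likelihood test. Of 5 tested targets of the pathway Heyl alone was higher, at 6.03 ± 1.46 CPM against 2.13 ± 1.19 CPM (1.52, SE 0.41, adjusted p = 0.0414). Hey1, of the same family, was not. Heyl had 19, 37 and 12 counts in control injured and 86, 64 and 58 counts in RaptorKO injured nerve. It met the count minimum through the RaptorKO libraries alone, and its control level rests on few counts. Of 16 processing enzymes and cofactors 0 passed at 5 dpc.

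**Figure D4:**
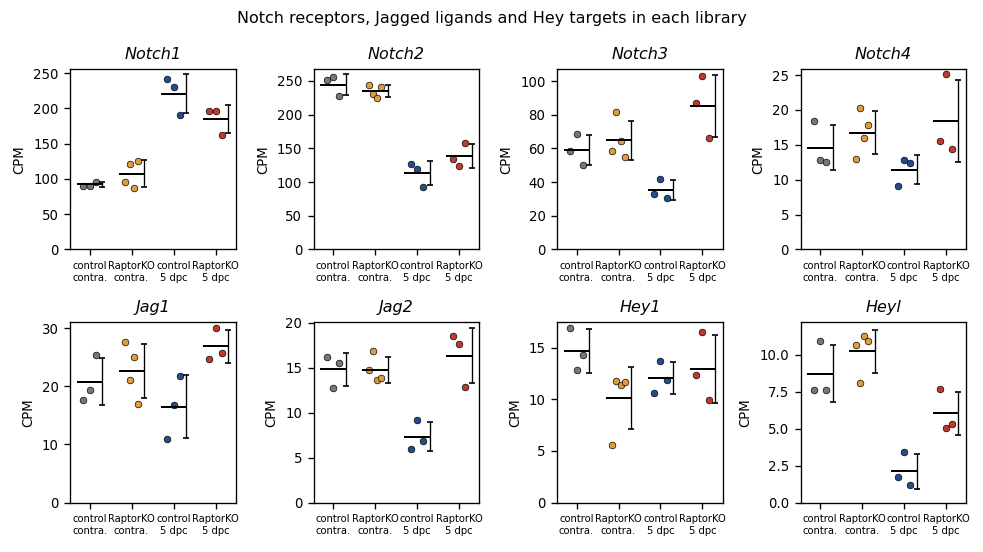
TMM-scaled CPM of 4 Notch receptors, 2 Jagged ligands and 2 Hey targets (linear axes from 0) in each library, with lines for group means and bars for ± SD. Notch3, Jag2 and Heyl lie higher in every RaptorKO injured library than in every control injured library, and Notch1 has its highest group mean in control injured nerve.

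Endothelial and mural cell markers moved in the same direction as Notch3, Jag2 and Heyl. At 5 dpc 6 of 6 endothelial markers and 4 of 5 pericyte and smooth muscle markers were higher in RaptorKO. Their summed levels were 409.8 to 630.3 against 225.6 to 342.9 CPM for the endothelial list and 848.7 to 1137 against 443.8 to 529.5 CPM for the mural list. No defining marker of either list was at 0 in any library. The part of these cells in the Notch3, Jag2 and Heyl values was not tested.

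With crush, the Notch genes did not move as a block. In control nerves 1 of 4 receptors rose (Notch1) and 2 fell, Notch2 from 244.4 ± 15.1 to 113.3 ± 18.2 CPM and Notch3 as above. Of 6 tested targets 2 rose and 2 fell, among them Hes1, a rise of 1.08 (SE 0.18), and Hey2, which fell by 2.53 (SE 0.40) on the log2 scale. In RaptorKO nerves 1 of 4 receptors rose and 1 fell, and 2 of 5 tested targets rose, with Hes1 at 1.14 (SE 0.21), while 1 fell. Of 16 processing enzymes and cofactors 7 rose and 2 fell in controls, and 9 rose and 2 fell in RaptorKO. Of the tested ligands 2 of 3 fell in controls and 1 of 4 in RaptorKO. Among all genes tested 32.4% rose and 32.9% fell in controls, and 30.5% and 28.5% in RaptorKO. A mix of directions is thus not unusual by itself.

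Runx1, Runx2, Runx3 and Cbfb, counted together as the Runx family, all rose with crush in both genotypes. Runx2 is the member described above. Of all genes tested 32.4% rose in controls and 30.5% in RaptorKO. Runx1, a regulator of blood cell development, rose by 2.73 (SE 0.15) in controls and 2.14 (SE 0.19) in RaptorKO. Cbfb, the subunit that Runx proteins share and that strengthens their DNA binding, rose by 1.32 (SE 0.094) and 1.28 (SE 0.10). Genotype changed 0 of 4 at 5 dpc.

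Of the relatives of Sox2 and Pax3, 6 of 11 could be tested. Sox4 rose by 4.78 (SE 0.14) in controls and 4.12 (SE 0.24) in RaptorKO with crush, against 2.83 and 3.44 for Sox2. Sox8 fell by 1.58 (SE 0.21) and by 2.09 (SE 0.17). Sox8 was the single relative that differed by genotype, at 36.0 ± 6.58 CPM in RaptorKO contralateral (SD, n = 4) against 17.6 ± 3.29 CPM in control contralateral nerve (1.05, SE 0.18, adjusted p = 0.00447, edgeR's quasi-likelihood test). At 5 dpc 0 of 6 relatives differed.

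Among the bHLH partners that Id proteins can bind, 1 of 4 tested passed at 5 dpc. Tcf4 was higher in RaptorKO, at 119.1 ± 19.2 against 84.9 ± 7.83 CPM (0.51, SE 0.13, adjusted p = 0.0327, edgeR's quasi-likelihood test), and 0 of 3 differed in contralateral nerve. Among the genes of the BMP and Smad pathway, which acts on Id transcription, 1 of 13 passed at 5 dpc. This was the receptor gene Bmpr1a, at 109.7 ± 14.5 CPM in RaptorKO against 167.0 ± 2.36 CPM in controls (-0.59, SE 0.11, adjusted p = 0.00947). In contralateral nerve the ligand gene Bmp7 was lower in RaptorKO, 140.5 ± 13.2 (SD, n = 4) against 210.2 ± 9.30 CPM, and was the 1 gene of 13 that passed. Crush lowered Bmp7 in both genotypes, by 2.01 (SE 0.15) and 1.61 (SE 0.14) on the log2 scale.

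Factors that repair SCs are known to release or display were counted beside the regulators. In controls 7 of 7 tested factors rose with crush, among them Ngfr, the low-affinity neurotrophin receptor, by 5.30 (SE 0.14) on the log2 scale, and Btc, a growth factor gene of the EGF family that went from 0.323 ± 0.0719 to 102.0 ± 12.98 CPM (SD, n = 3). RaptorKO nerves had 6 of 7. Among all genes tested 32.4% rose in controls and 30.5% in RaptorKO. At 5 dpc, 2 of 7 factors were lower in RaptorKO, as were 4.44% of all genes tested. Ucn2, a peptide hormone gene, was 18.7 ± 3.43 against 48.4 ± 2.52 CPM (-1.35, SE 0.16, adjusted p = 8.11e-04), and the cytokine gene Lif was 17.1 ± 2.58 against 32.7 ± 4.23 CPM (-0.91, SE 0.17, adjusted p = 0.00796), both by edgeR's quasi-likelihood test.

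Ngfr was 68.5 ± 4.72 CPM (SD, n = 4) in RaptorKO contralateral and 39.7 ± 3.95 CPM in control contralateral nerve (0.81, SE 0.10, adjusted p = 6.80e-04), but 1463 ± 193 and 1619 ± 179 CPM at 5 dpc. Its interaction was -0.93 (SE 0.16, adjusted p = 0.00857, edgeR's quasi-likelihood test). Of the 8 promyelin regulators, on the other side of the balance, 3 fell and 2 rose with crush in controls. In RaptorKO nerves 4 fell and 2 rose. Of all genes tested, 32.9% fell and 32.4% rose in controls, and 28.5% fell and 30.5% rose in RaptorKO. Egr2 fell by 3.45 (SE 0.11) in controls and 2.82 (SE 0.13) in RaptorKO, whereas Pou3f1 rose by 2.93 (SE 0.18) and 2.19 (SE 0.12). At 5 dpc 0 of 8 promyelin regulators differed by genotype, and in contralateral nerve Nab2 was higher (0.47, SE 0.10) and Pou3f2 lower (-0.84, SE 0.22) in RaptorKO.

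All 8 SC markers had counts in every library, as the labelled tissue would have, and some differed by genotype. At 5 dpc the summed SC marker level was 4169 to 4712 CPM in control and 2862 to 3478 CPM in RaptorKO nerve, and 3 of 8 markers were lower. In contralateral nerve 4 of 8 were lower, at 60350 to 66780 against 51890 to 63380 CPM. All 6 cell cycle genes were lower in RaptorKO at 5 dpc, with sums of 669.3 to 745.1 against 1225 to 1368 CPM. At 5 dpc 0 of 7 macrophage markers differed, while 2 of 6 fibroblast, 1 of 3 perineurial, 4 of 5 mast cell and 3 of 3 erythrocyte markers that could be tested were higher in RaptorKO. How far SC number, its RNA content or the share of other cells enters the regulators' levels was not tested.

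**Figure D5:**
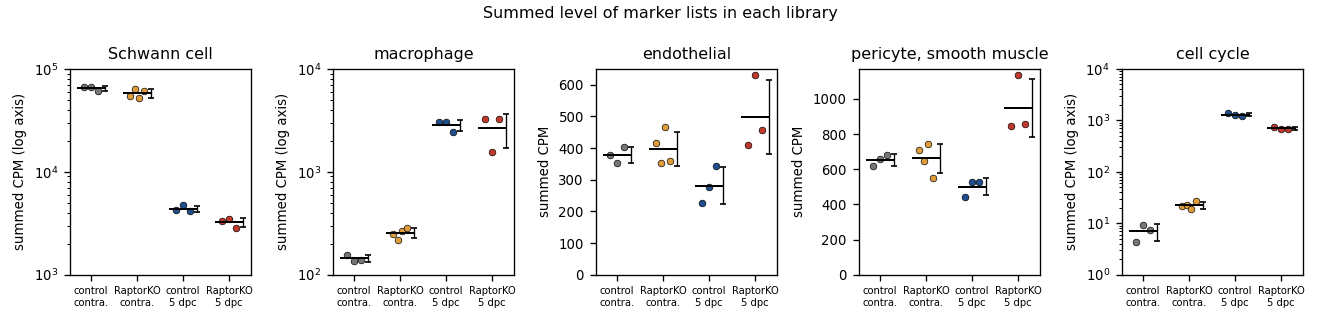
Summed CPM of marker lists in each library (log axes for SCs, macrophages and cell cycle, linear axes from 0 for the endothelial and mural lists), with lines for group means and bars for ± SD. SC and cell cycle sums lie lower and endothelial and mural sums higher in each RaptorKO injured library than in each control injured one, while 1 RaptorKO injured library has the lowest macrophage sum at 5 dpc.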

How the data were processed

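Total RNA of 13 sciatic nerves (stranded Illumina TruSeq libraries) was measured by RNA-seq. Per the labels and the methods of the study, the authors trimmed reads with Trimmomatic, mapped them to GRCm38 and deposited expected counts per gene estimated with RSEM 1.2.22. Estimation shares reads among overlapping or similar genes, and 24.93% to 27.95% of the values in a library were not whole, so they were rounded to whole numbers. Gene names, positions and exon lengths came from GENCODE M21. TMM factors and edgeR 4.0.16 (quasi-likelihood test, R 4.3.3) were run per comparison over all genes with at least 50 counts in 2 libraries, with Benjamini-Hochberg adjustment, an adjusted p below 0.05 and, for the 4 two-group comparisons, a fold above 1.2. SE is the log2 fold change over the root of F, and intervals are 95%. Log2 CPM used a prior count of 2. Alternatives were DESeq2 1.42.0, edgeR's exact test, RLE factors, other count filters, a stricter threshold, all libraries in 1 fit, a replicate block and leaving out libraries. The functions were tested on simulated counts. All 10 members are named, at most 2 called genes a list and comparison (smallest adjusted p), and the 3 most alike genes for 4 of the members, except 1 that is not reported here. The members and lists were chosen with earlier results of these data known. Exact intervals and the 3-count floor cover counting error only.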

Additional observations from a re-analysis of the deposited data

Results flagged for a closer look

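Hey1 had a library apart from the rest in the RaptorKO contralateral group: RaptorKO contralateral 1 stood at 5.60 CPM while the other 3 lay at 11.43 to 11.75 CPM. Lif was apart in the same way in RaptorKO contralateral 3, at 12.5 CPM. These 2 were found among 38 genes checked in the 1 group with 4 libraries, and chance alone gives about 1 in 20.

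In the surrounding pathways 3 genes responded to crush by different amounts in the genotypes, by the interaction in edgeR's quasi-likelihood test. Jag2 (log2 1.16, 1 of 4 tested Notch ligands) and Notch3 (1.14, 1 of 4 receptors) had higher values in RaptorKO. Ngfr (-0.93, 1 of 7 tested repair factors) had a smaller rise in RaptorKO. In the other pathway lists no gene passed, and of all 12851 genes tested 2.47% did. None of the 8 testable regulators passed that test.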

How the results depend on the processing

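Among the 656 recomputed member fold changes, 635 kept their direction and their side of the threshold, 4 were no longer past it, 4 came past it and 13 changed sign (Olig1, and Runx2 in contralateral nerve, were under the count minimum and are not among these). The number of members changed at 5 dpc went from 0 to 1 with filterByExpr (Olig1), and ranged from 0 to 1 on leaving out 1 library (Id3, without RaptorKO injured 3). In contralateral nerve it ranged from 0 to 1 (Sox2, without RaptorKO contralateral 2). With crush it stayed between 5 and 7 in controls and between 4 and 5 in RaptorKO over all settings run, and the interaction called 0 in each. The cause was not tested.

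The sign changes all belong to values that did not pass. Leaving out 1 library, Id2 at 5 dpc ran from -0.22 to 0.078 and Hey1 from -0.10 to 0.28, each changing sign without RaptorKO injured 2. Id3 in contralateral nerve ran from -0.23 to 0.025 and was 0.023 with the replicate block. Id3 with crush in RaptorKO ran from -0.10 to 0.24 and was -0.13 with the replicate block. The Id1 interaction ran from -0.11 to 0.36 and was -0.025 with the replicate block.

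Equal replicate numbers may mark the nerves of 1 mouse, since the crush was unilateral and the paper sequenced injured nerves with their contralateral counterparts. The main tests did not use pairs and treated all libraries as independent. Deviations of same-numbered injured and contralateral libraries correlated at 0.068, 0.13 and 0.305 in controls and -0.024, 0.211 and 0.168 in RaptorKO. Such values cannot decide whether the libraries are paired. With the replicate block 6 members were called with crush in controls, 5 in RaptorKO (Id1 added) and 0 for the interaction. It called 0 members between genotypes at 5 dpc and 0 in contralateral nerve. In these genotype comparisons the block joined control and RaptorKO libraries of equal number, which are different mice. There it does not test whether equal numbers mark 1 mouse.

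Over all genes, the calls at 5 dpc were 1028, 1578 with no count minimum, 351 at an adjusted p below 0.01 and as few as 447 without control injured 2. In contralateral nerve 1208 became 477 at 0.01 and as few as 524 without control contralateral 2. With the replicate block, which joined different mice here, it was 1810. The interaction called 318 genes, 598 with DESeq2, 84 at 0.01 and 113 without both control libraries numbered 3. Genes under 50 counts, Olig1 and Pax3 among them, are limited by depth.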
